A study of Mus musculus with 12 samples.

Results

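The genes described here are 54 genes that copy DNA and supply its building blocks: origin licensing, helicase and fork proteins, polymerases, nucleotide enzymes, proteins that copy chromatin, and G1/S regulators. They were chosen by name, from a list, and each symbol matched 1 of the 56748 gene IDs counted. All 54 were among the 16016 genes abundant enough to be tested, so no member was lost to the filter on low counts.

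RNA was sequenced from natural killer (NK) cells, lymphocytes that kill tumor cells and infected cells without prior immunization, after sorting from mouse lymph nodes. There were 12 libraries in 3 groups of 4. The hematogenous group came from tumor-bearing nodes in a model of diffuse large B cell lymphoma spread through blood vessels, and the lymphatic group from tumor-bearing nodes in a model of the same kind of lymphoma spread by lymphatic vessels. The tumor-free group came from nodes of C57BL/6J mice without tumor. The labels give no genotype, age, treatment, cell line or time for any group, no gate for the sort, and do not say whether the samples of a group came from separate animals. All p-values therefore reflect sample-to-sample spread alone, part of which could be technical.

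Before a cell copies its genome, the origin recognition complex, Cdc6 and Cdt1 load the ring of MCM2 to MCM7 onto DNA, and geminin (Gmnn) keeps Cdt1 from loading it again. At the start of S phase, Cdc45 and the GINS complex turn that ring into an active helicase, and primase, the replicative polymerases, the PCNA clamp and its RFC loader, RPA and DNA ligase then build the new strands. Most of these genes are transcribed together at the G1/S boundary under E2F factors, and in resting lymphocytes they are low. NK cells in an unchallenged node are mostly resting, and divide after stimulation by cytokines.

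E2F factors bind words such as TTTCCCGC and TTTGGCGC near start sites, so 4 promoters are printed to show where such words lie. They are the 250 bases before the RefSeq start site in GRCm38.p6, read 5′ to 3′ along the gene, with the E2F-type words in capitals. They were picked to include a helicase gene with paired words (Mcm5 and Mcm6), a licensing gene (Cdc6) and a chromatin gene (Uhrf1).
Mcm5, chr8:75109259-75109508, plus strand: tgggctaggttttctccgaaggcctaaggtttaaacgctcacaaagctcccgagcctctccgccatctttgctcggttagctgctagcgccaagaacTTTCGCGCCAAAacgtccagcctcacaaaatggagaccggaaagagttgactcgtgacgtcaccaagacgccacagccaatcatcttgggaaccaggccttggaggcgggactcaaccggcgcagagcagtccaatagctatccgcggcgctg
Mcm6, chr1:128359706-128359955, minus strand: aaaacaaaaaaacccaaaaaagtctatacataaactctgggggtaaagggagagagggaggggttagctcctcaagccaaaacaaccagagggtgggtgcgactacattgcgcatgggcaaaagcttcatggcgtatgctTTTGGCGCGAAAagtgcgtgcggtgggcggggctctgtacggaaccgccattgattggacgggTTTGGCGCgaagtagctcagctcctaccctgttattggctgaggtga
Cdc6, chr11:98907901-98908150, plus strand: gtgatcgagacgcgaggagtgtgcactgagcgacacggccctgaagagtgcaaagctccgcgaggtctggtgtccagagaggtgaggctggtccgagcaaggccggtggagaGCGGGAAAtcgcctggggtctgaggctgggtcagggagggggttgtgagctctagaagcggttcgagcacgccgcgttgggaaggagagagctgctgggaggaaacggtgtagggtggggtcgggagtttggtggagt
Uhrf1, second start site, chr17:56304063-56304312, plus strand: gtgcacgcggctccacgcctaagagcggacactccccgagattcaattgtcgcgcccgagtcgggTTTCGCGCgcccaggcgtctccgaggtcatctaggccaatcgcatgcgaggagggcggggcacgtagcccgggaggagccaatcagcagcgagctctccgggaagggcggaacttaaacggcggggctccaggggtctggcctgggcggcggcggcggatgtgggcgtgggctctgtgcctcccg
In Mcm5 the capitals run from position -153 to -142 and hold 2 overlapping words, one on each strand. In Mcm6 the capitals span -110 to -99, again with a word on each strand, and a second stretch lies at -47 to -40. The word of Cdc6 lies at -138 to -131, on the other strand, and that of Uhrf1 at -185 to -178; the first Uhrf1 window held none of the searched words.

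The words searched were TTTCCCGC, TTTGGCGC, TTTCGCGC and TTTGCCGC on both strands, some of which overlap each other, in windows of 250 bases before to 50 after each start. RefSeq windows were held for 44 members, and 18 of them (40.9%) contained at least 1 word, against 704 of 27025 genes (2.6%) with a window overall. Among tested genes with a window the share was 476 of 10170 (4.68%). The word CCAAT, which NF-Y binds, was in 28 of the 44 members (63.6%) and in 11096 of 27025 genes (41.1%). A match is a run of letters, not a site shown to be bound.

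Gene counts per library ranged from 10087837 to 19625766 in the hematogenous group, from 17672832 to 43494812 in the lymphatic group and from 6654215 to 23674960 in the tumor-free group. Levels below are CPM, gene counts relative to the TMM-scaled library total. Of all reads, 55.4% to 65.5% were assigned to genes in hematogenous libraries, against 67.1% to 72.1% in lymphatic and 65.7% to 70.7% in tumor-free libraries. The NK marker Ncr1 (NKp46) was at 551 to 860.5 CPM in hematogenous libraries, 931 to 1186 in lymphatic and 1263 to 1461 in tumor-free libraries. NK cell RNA was thus present in all 12, which does not measure the purity of the sort. The 12 NK markers summed to 9721 to 11321 CPM in the hematogenous group, 13124 to 15992 in the lymphatic group and 14524 to 16215 in the tumor-free group. The T cell list summed to 583 to 779 CPM in hematogenous, 386 to 610 in lymphatic and 334 to 514 in tumor-free libraries, and the B cell list to 382 to 549 CPM in hematogenous, 464 to 919 in lymphatic and 354 to 485 in tumor-free libraries. Most of the B cell sum was Ighm, with means of 318, 443 and 317 CPM in the same order. The myeloid list summed to 835 to 1239 CPM in hematogenous, 1354 to 1701 in lymphatic and 1021 to 1188 in tumor-free libraries, most of it Itgax, and the erythroid list to 0.848 to 54.3 CPM in hematogenous, 13.1 to 37.9 in lymphatic and 0 to 14.4 in tumor-free libraries. The germinal center list summed to 52 to 64.1 CPM in hematogenous, 77.3 to 91.5 in lymphatic and 59.1 to 87.7 in tumor-free libraries, nearly all of it Bcl6 and S1pr2, the 2 of its 6 genes abundant enough to test, with Rgs13 at 0 in all 12 libraries. In the stroma and endothelium list, Pecam1 made up nearly all of the sum, which was 117 to 139.8 CPM in hematogenous, 161 to 174 in lymphatic and 113 to 128 in tumor-free libraries. Between the models, 6 of the 12 NK markers were called lower in hematogenous nodes, 3 of the 12 T cell markers higher and 0 of the 12 B cell markers in either direction (3 had an unadjusted p under 0.05 in edgeR). In the other lists Bcl6, Itgax and Pecam1 were lower and S100a9 higher. Against tumor-free nodes, 8 NK markers were lower and 5 T cell markers and Pax5, a B cell factor, higher in hematogenous nodes. Of 9 myeloid markers tested, 5 were higher there (Csf1r, Adgre1, Cd68, Flt3 and S100a9), of 5 erythroid markers 2 (Hbb-bt and Hba-a2), and S1pr2 was lower. Adgre1, which marks macrophages, was at 4.81 to 7.81 CPM in hematogenous and 0 to 1.06 CPM in tumor-free libraries. In lymphatic against tumor-free nodes, Pax5, Bcl6, Cd68, Pecam1 and Hba-a2 were higher and Klrb1c, an NK receptor, lower, and 11 of 12 B cell markers had a fitted difference above 0 (median log2 fold change 1.07). The part of these marker levels in the results below was not tested. In bulk RNA, fewer cells of a type and less RNA per cell cannot be told apart.

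The summed RNA of these 54 genes was lowest in hematogenous libraries and had its highest mean in lymphatic libraries. The sums were 1781, 1946, 1798 and 1996 CPM in hematogenous replicates 1 to 4, then 2554, 3592, 2608 and 2845 CPM in lymphatic replicates and 2626, 2168, 2344 and 2297 CPM in tumor-free replicates. No hematogenous library reached any lymphatic or tumor-free library, while lymphatic and tumor-free ranges overlapped. Lymphatic replicate 2 was the highest library of its group in 42 of the 54 members and the highest of all 12 in 33. Hematogenous replicate 1 was the lowest of its group in 27. Tumor-free replicate 2, the shallowest library, had 4 members at 0, where a count of 0 allows a level of up to 0.443 CPM.

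**Figure D1:**
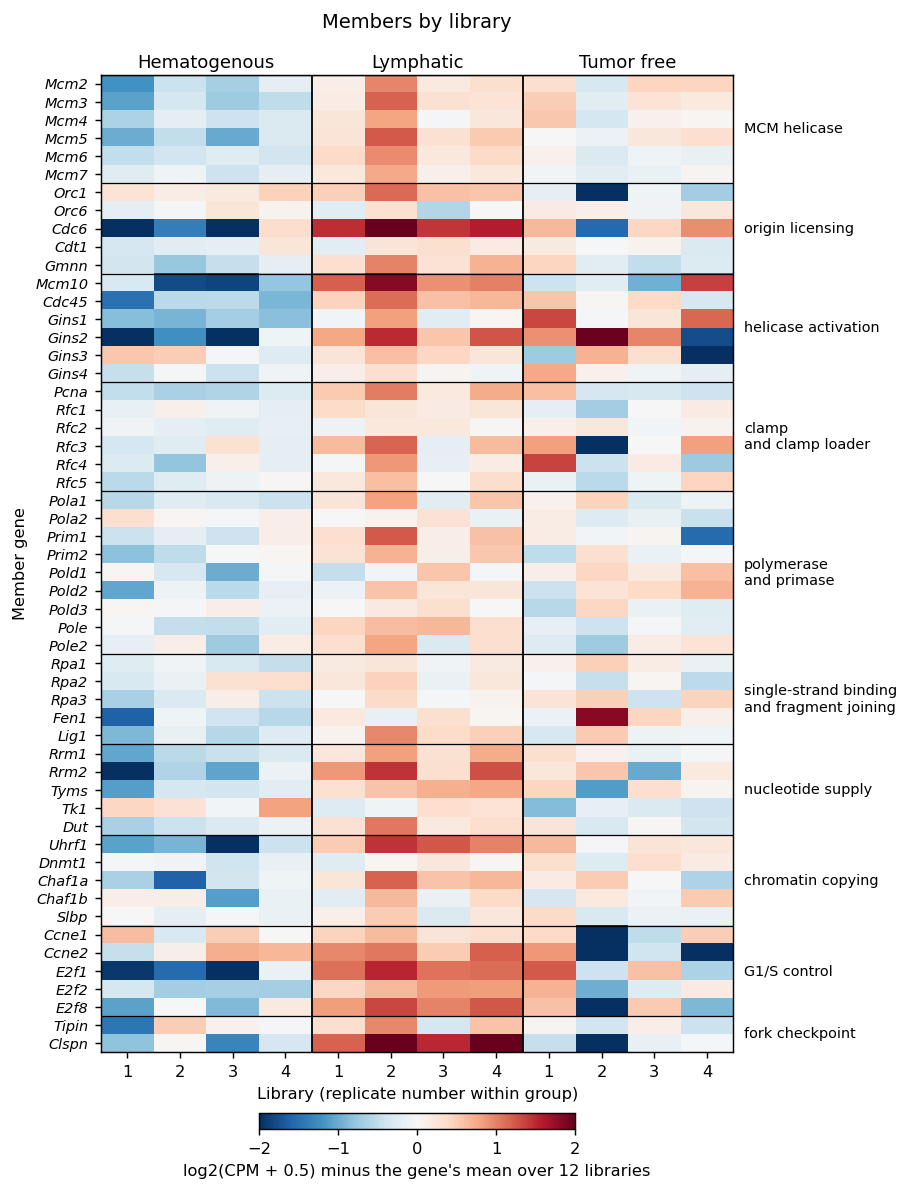
Level of each of the 54 genes (rows, in order of role) in each of the 12 libraries (columns: hematogenous, lymphatic, tumor free), as log2 of CPM plus 0.5 relative to the gene's mean over all libraries, with colors ending at ±2. Lymphatic replicate 2 is the highest of the 12 columns in 33 rows, and 4 rows of tumor-free replicate 2 are at a count of 0.

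Compared per kilobase of exon, Pcna was the highest of the members in lymphatic libraries (66.6 ± 15.9 CPM per kb, SD, n = 4) and in tumor-free libraries (41.0 ± 15.5). Dnmt1, the maintenance DNA methyltransferase, led in hematogenous libraries at 30.3 ± 3.26 CPM per kb, within the spread of Pcna (30.0 ± 3.58) and Mcm6 (29.4 ± 2.08). At the low end stood Gins2 in the hematogenous group (0.164 ± 0.235 CPM per kb) and Clspn in the tumor-free group (0.489 ± 0.337). Neighbors in this order, such as Dnmt1 and Pcna in hematogenous libraries, did not differ beyond their spread.

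Between the tumor models, each difference that passed the test was a lower level in hematogenous NK cells. Of the 54 members, 22 (40.7%) passed the test as lower and 0 as higher, while 5.92% of all tested genes were called lower and 2.93% higher, 8.85% in all. No member reached even an unadjusted p under 0.05 in the higher direction, and DESeq2 called 24 lower and 0 higher. The median log2 fold change over the members was -0.74, against -0.006 over all genes tested, and 51 of 54 members lay below 0. In 30 of 54 (55.6%) every hematogenous library lay below every lymphatic library, against 11.4% of all genes, and in 0 did every one lie above, against 9.14%. With library size alone as scaling, all genes split into 744 higher and 590 lower, in place of 469 and 948, and 18 members were called, all lower. With the B cell list as a covariate 22 members were called, all lower. Calls depended on single libraries: 12 without lymphatic replicate 2, 14 without hematogenous replicate 1 and 11 without hematogenous replicate 3, all of them lower. Calls over all genes also fell in these fits. They were 190 higher and 430 lower without lymphatic replicate 2, and 371 and 440 without hematogenous replicate 1. Without hematogenous replicate 3 they were 254 higher and 366 lower.

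Against tumor-free nodes, where 5 myeloid and 5 T cell markers were higher and 8 NK markers lower, hematogenous NK cells had 9 members called lower and 1 higher (Tk1), 16.7% and 1.85% of the 54, against 6.87% and 9.52% of all tested genes (16.4% in either direction). The median log2 fold change was -0.34, against 0.078 for all genes, with 42 members below 0. Every hematogenous library lay below every tumor-free library in 8 members (14.8%), against 8.01% of all genes, and above in 2 (3.7%), against 11.5%. The calls were 6 without tumor-free replicate 1 and 6 without hematogenous replicate 3. Over all genes, these fits called 1384 higher and 974 lower, and 1036 higher and 724 lower. With the B cell list as a covariate 4 members were called, all lower (Mcm2, Mcm3, Gins1 and Uhrf1), and over all genes 644 were higher and 487 lower. That covariate, a mean log2 level, was -2.996 in tumor-free replicate 2, the shallowest library, and -0.777 to 1.747 in the others. Its part in the calls cannot be told apart from that of depth in this library. With a trend of gene length removed, all genes split into 962 higher and 1463 lower, in place of 1525 and 1100, and 12 members were called, all lower.

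In lymphatic against tumor-free NK cells, few members were called. They were 3 higher (Mcm6, Pole and Clspn, 5.56%) and 0 lower, against 2.32% and 0.418% of all tested genes (2.74% in either direction). Among the markers, Pax5 (1 of 12 B cell) and Bcl6 (1 of 2 germinal center tested) were called higher. So were Cd68 (1 of 9 myeloid tested), Pecam1 and Hba-a2, while Klrb1c (1 of 12 NK) was lower. S1pr2, the other germinal center gene tested, had a log2 fold change of -0.82 and was not called. No member had an unadjusted p under 0.05 in the lower direction, and DESeq2 called 3 higher. The median log2 fold change was 0.46, against 0.079 over all genes, and 44 members lay above 0. In 8 members (14.8%) every lymphatic library was above every tumor-free library, against 7.7% of all genes, and in 0 every one was below, against 2.22%. All 3 calls depended on single libraries. There were 0 calls without tumor-free replicate 4, lymphatic replicate 2 or lymphatic replicate 4, and the members at an unadjusted p under 0.05 in edgeR then numbered 13 without tumor-free replicate 4, 6 without lymphatic replicate 2 and 8 without lymphatic replicate 4. Over all genes, 246 were called higher and 48 lower without tumor-free replicate 4. Without lymphatic replicate 2, 248 genes were higher and 47 lower, and without lymphatic replicate 4, 220 and 35. There was 1 member call without tumor-free replicate 2. There were 0 when only both compared groups were fitted, with 16 members at an unadjusted p under 0.05, and 0 with the B cell list as a covariate, with 15 members under it. With library size alone, all genes split into 295 higher and 108 lower, in place of 372 and 67, and with a trend of gene length removed into 288 and 149; 1 member was called in each case.

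Across the comparisons, 25 members were called at least once and 29 never. Comparisons share libraries, so their values are given side by side and not as independent results. Mcm2, Mcm3, Mcm5, Cdc45, Rrm1, Uhrf1 and E2f1, 7 genes in all, were lower in hematogenous nodes against both other groups. Mcm6, Pole and Clspn were higher in lymphatic than in tumor-free nodes and lower in hematogenous than in lymphatic nodes. For 32 of 54 members the fitted lymphatic level was above, and the fitted hematogenous level below, that of tumor-free nodes. The counts in this paragraph were not set against the same counts over all tested genes. They describe the list and are not read as a result about the members.

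**Figure D2:**
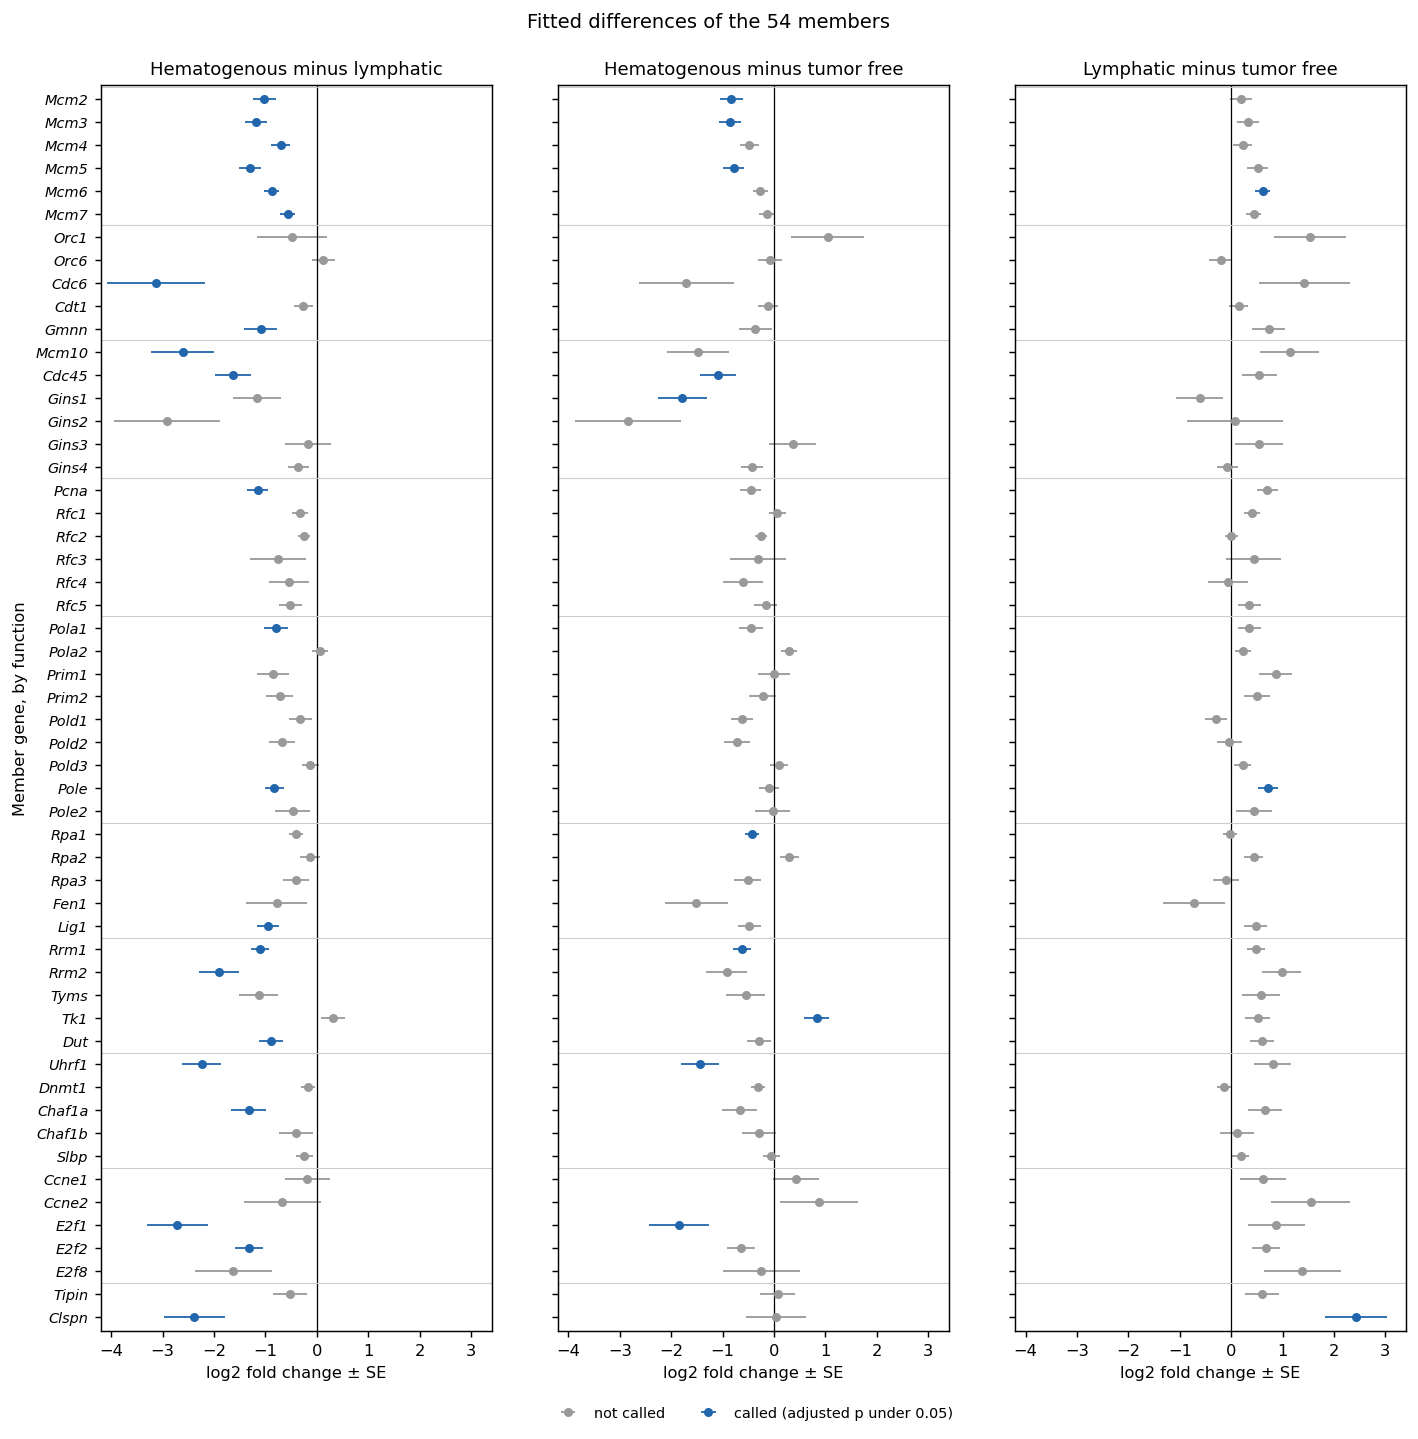
Log2 fold change of each member (rows, by role) with its standard error, for hematogenous minus lymphatic, hematogenous minus tumor free and lymphatic minus tumor free, with called genes in blue and others in gray. For hematogenous minus lymphatic, 51 of 54 points lie left of 0, with Cdc6 farthest at -3.13.

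The MCM helicase, the ring that unwinds DNA, was called as a whole between the models. All 6 subunits were lower in hematogenous than in lymphatic nodes, and in each of the 6 every hematogenous library lay below every lymphatic library, as in 11.4% of all genes. Mcm5 stood at 41.6, 59.1, 41.2 and 67.6 CPM in hematogenous replicates 1 to 4, at 98.8, 196, 103 and 119.6 CPM in lymphatic replicates and at 83.3, 76.4, 97.5 and 104 CPM in tumor-free replicates. Every hematogenous library lay below every other library. The fall against lymphatic nodes was -1.30 on the log2 scale (SE 0.208, adjusted p = 0.00109) and against tumor-free nodes -0.79 on the log2 scale (SE 0.208, adjusted p = 0.0138). Mcm6, the most abundant of the MCM genes per kilobase in each group, had 126, 135, 149.7 and 138 CPM in hematogenous libraries, 229.8, 342, 206 and 229.9 in lymphatic libraries and 189, 144, 166 and 160.0 in tumor-free libraries. All lymphatic libraries exceeded all others. Mcm6 was lower in hematogenous than in lymphatic nodes (log2 fold change -0.88, SE 0.144, adjusted p = 0.00136) and higher in lymphatic than in tumor-free nodes (log2 fold change 0.61, SE 0.144, adjusted p = 0.0224), the second call being lost without any 1 of lymphatic replicates 2 and 4 and tumor-free replicates 2 and 4 (adjusted p up to 0.124).

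Mcm3 reached 34, 56.3, 44 and 50.8 CPM in hematogenous libraries, 79.7, 163, 88.9 and 87.6 in lymphatic and 102, 62.7, 87.4 and 82.5 in tumor-free libraries. It fell against lymphatic nodes (log2 fold change -1.18, SE 0.216, adjusted p = 0.00264) and against tumor-free nodes (log2 fold change -0.85, SE 0.216, adjusted p = 0.0109). In Mcm2 the values were 28, 48.5, 41.1 and 56.6 CPM in hematogenous, 71.3, 128, 74.5 and 81.1 in lymphatic and 82.8, 52.3, 87.6 and 88.4 in tumor-free libraries. It fell against lymphatic nodes (log2 fold change -1.03, SE 0.223, adjusted p = 0.00746) and against tumor-free nodes (log2 fold change -0.84, SE 0.224, adjusted p = 0.0149), where tumor-free replicate 2 overlapped the hematogenous range. Mcm4 was at 70.7, 96.2, 82.2 and 89.2 CPM in hematogenous, 129, 189, 106 and 128 in lymphatic and 159.9, 85.3, 116 and 112 in tumor-free libraries. Mcm7 was at 73.9, 81.9, 65.4 and 76.9 CPM in hematogenous, 100.5, 148, 93.6 and 101 in lymphatic and 83.8, 74.2, 79.2 and 90.3 in tumor-free libraries. Mcm4 (log2 fold change -0.71, SE 0.183, adjusted p = 0.0202) and Mcm7 (log2 fold change -0.57, SE 0.149, adjusted p = 0.0205) fell against lymphatic nodes and did not pass against tumor-free nodes. Mcm4 lost its call without any 1 of hematogenous replicates 1 and 3 and lymphatic replicate 2 (adjusted p up to 0.108), and Mcm7 without any 1 of hematogenous replicates 1, 3 and 4 and lymphatic replicate 2 (up to 0.111). Mcm5 against tumor-free nodes passed with all libraries but was at adjusted p = 0.052 without hematogenous replicate 3. Exons of Mcm7 overlap Cops6 and Ap4m1 on the opposite strand, and the strand setting of the counting is not given, so its counts may include reads of those genes.

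Of the 5 licensing genes, Cdc6 and Gmnn were lower in hematogenous than in lymphatic nodes and none was called in edgeR against tumor-free nodes in either model, with 0 in hematogenous and 2 in lymphatic nodes at an unadjusted p under 0.05. Cdc6, which recruits the helicase to origins, had 0, 1.06, 0 and 4.66 CPM in hematogenous libraries, 10.8, 17.7, 10.4 and 11.5 in lymphatic libraries and 5.84, 0.887, 4.88 and 7.19 in tumor-free libraries. Hematogenous replicates 1 and 3 were at 0, which allows a level up to 0.283 CPM in replicate 1 and up to 0.19 CPM in replicate 3. The fall against lymphatic nodes (log2 fold change -3.13, SE 0.951, adjusted p = 0.0473) had the largest fold of the members, and a wide error. It was lost without any 1 of 10 libraries, all but tumor-free replicate 2 and hematogenous replicate 4 (adjusted p up to 0.162). Gmnn, the inhibitor of relicensing, had 7.07, 5.29, 6.58 and 8.09 CPM in hematogenous libraries, 11.9, 19.1, 11.4 and 15.3 in lymphatic and 12.7, 7.98, 6.5 and 7.62 in tumor-free libraries. It fell against lymphatic nodes (log2 fold change -1.09, SE 0.322, adjusted p = 0.0375), a call lost without any 1 of hematogenous replicates 1, 2, 3 and 4 and lymphatic replicates 1, 2 and 4 (adjusted p up to 0.183). Cdt1, the loader that geminin inhibits, did not pass (26.9, 29.2, 29.9 and 40.3 CPM in hematogenous, 29.5, 41, 43 and 38.1 in lymphatic and 38.9, 34.1, 36 and 27.7 in tumor-free libraries), and Orc1 and Orc6, subunits of the origin recognition complex, did not pass either.

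Of the 6 helicase activation genes, Mcm10 and Cdc45 were lower in hematogenous than in lymphatic nodes, and Cdc45 and Gins1 lower than in tumor-free nodes. Mcm10, a factor needed to start unwinding, was at 3.3, 0.856, 0.823 and 2.26 CPM in hematogenous libraries, 10.2, 16.1, 8.36 and 9.01 in lymphatic and 3.04, 3.55, 1.91 and 11.6 in tumor-free libraries (log2 fold change -2.61, SE 0.607, adjusted p = 0.011 between the models). Cdc45, which joins MCM and GINS into the active helicase, was at 2.54, 5.39, 5.44 and 4.01 CPM in hematogenous libraries, 11.1, 17.9, 12.4 and 13.1 in lymphatic and 12, 8.13, 10.7 and 6.33 in tumor-free libraries. Both other groups lay above all hematogenous libraries. Exons of Cdc45 overlap Ufd1 on the opposite strand. Cdc45 fell against lymphatic nodes (log2 fold change -1.64, SE 0.351, adjusted p = 0.00693) and against tumor-free nodes (log2 fold change -1.09, SE 0.351, adjusted p = 0.0385), the second call being lost without any 1 of hematogenous replicates 1, 3 and 4, lymphatic replicates 1, 3 and 4, and tumor-free replicates 1 and 3 (adjusted p up to 0.0956). Gins1, a GINS subunit, fell against tumor-free nodes (log2 fold change -1.78, SE 0.475, adjusted p = 0.0147) with 2.45, 2.32, 2.85 and 2.48 CPM in hematogenous, 4.64, 8.9, 4.12 and 5.01 in lymphatic and 13, 4.73, 5.82 and 11.4 in tumor-free libraries. Its difference from lymphatic nodes did not pass (log2 fold change -1.17, SE 0.466, adjusted p = 0.137). Mcm10 lost its call without lymphatic replicate 2 or hematogenous replicate 3 (up to 0.0565). Gins2, Gins3 and Gins4, the other GINS subunits, were not called; Gins2 was at 0 in hematogenous replicates 1 and 3.

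Of the clamp and clamp loader genes, Pcna alone was called. This sliding clamp, which holds the polymerases on DNA, was at 72.3, 64.6, 67.2 and 84 CPM in hematogenous, 146, 207, 117 and 169.8 in lymphatic and 154, 81, 81.9 and 76.6 in tumor-free libraries. The lymphatic libraries stood above every hematogenous library, and tumor-free replicate 1 stood well above the other tumor-free libraries. The fall against lymphatic nodes was -1.15 on the log2 scale (SE 0.204, adjusted p = 0.0022), and that against tumor-free nodes did not pass (log2 fold change -0.45, SE 0.204, adjusted p = 0.144). The processed pseudogene Pcna-ps2 had 21 to 183 counts per library, 2.2% of the Pcna counts. The 5 RFC subunits, which load the clamp, were not called in any comparison; for Rfc1, its largest subunit, the values were -0.33 on the log2 scale (SE 0.158, adjusted p = 0.224) between the models and 0.40 on the log2 scale (SE 0.159, adjusted p = 0.244) for lymphatic minus tumor-free nodes.

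**Figure D3:**
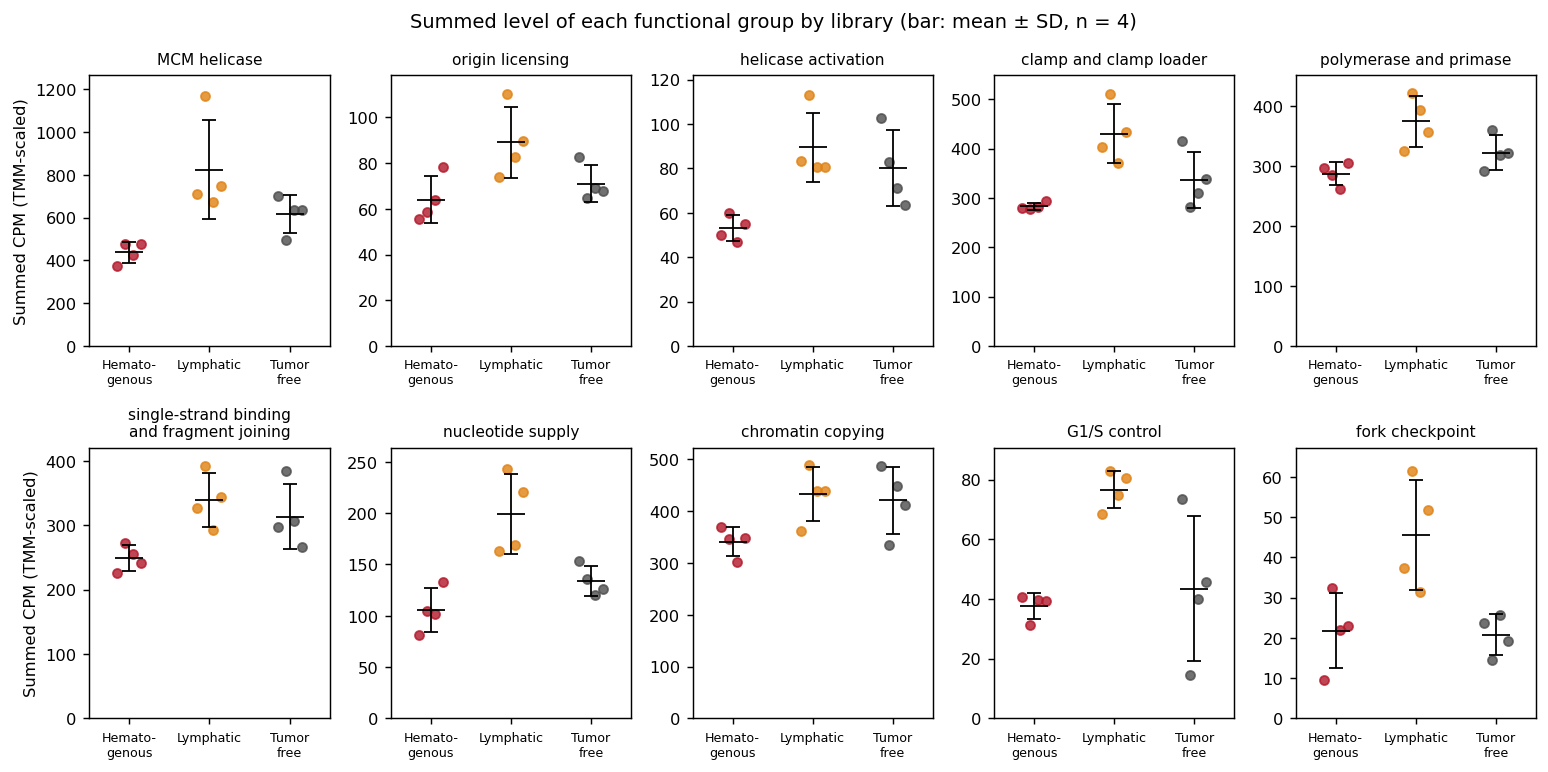
Summed CPM of the members of each functional group in each library (points), with mean and SD, for hematogenous, lymphatic and tumor-free nodes. The MCM helicase sums are 374 to 479 CPM in hematogenous libraries and 672 to 1167 CPM in lymphatic libraries.

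Among 9 polymerase and primase genes, Pole and Pola1 were lower in hematogenous than in lymphatic nodes. Pole, the catalytic subunit of the leading-strand polymerase, was at 25.2, 18.3, 18 and 21.9 CPM in hematogenous libraries, 34.6, 39.5, 40.9 and 32.7 in lymphatic and 22.8, 19.1, 25.4 and 22.1 in tumor-free libraries. It was higher in every lymphatic library than in any other library, and fell against lymphatic nodes (log2 fold change -0.82, SE 0.191, adjusted p = 0.0108). The rise in lymphatic over tumor-free nodes (log2 fold change 0.72, SE 0.192, adjusted p = 0.0468) lay just under the threshold and was lost without any 1 of hematogenous replicates 2, 3 and 4, lymphatic replicates 1, 2, 3 and 4, and tumor-free replicates 1, 2 and 4 (adjusted p up to 0.151). The Pole call between the models was lost without hematogenous replicate 3 alone (adjusted p = 0.0577). Pola1, the catalytic subunit of the polymerase that starts each fragment with primase, was at 18, 22.5, 21.6 and 19.8 CPM in hematogenous, 32, 47.4, 22.8 and 39.6 in lymphatic and 28.5, 36.6, 21.8 and 24.9 in tumor-free libraries. It fell against lymphatic nodes (log2 fold change -0.79, SE 0.227, adjusted p = 0.0337) and lost its call without any 1 of hematogenous replicates 1, 2, 3 and 4, lymphatic replicates 1, 2 and 4, and tumor-free replicate 1 (adjusted p up to 0.175). Pole overlaps Gm15792 on the opposite strand. The other 7 polymerase and primase genes were not called, and the group's log2 fold changes between the models ran from -0.86 to 0.06.

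Of the genes that coat single strands and join fragments, Lig1 and Rpa1 were called. Lig1, the ligase that seals fragments, had 23.9, 40.7, 30.1 and 37.6 CPM in hematogenous, 47.6, 87.9, 58 and 62.9 in lymphatic and 36.1, 64.7, 41.8 and 42.4 in tumor-free libraries. It fell against lymphatic nodes (log2 fold change -0.95, SE 0.22, adjusted p = 0.0107), the call being lost without lymphatic replicate 2 or hematogenous replicate 3 (adjusted p up to 0.0628). Rpa1, the large subunit of the protein that coats single strands, was at 149.5, 169.9, 143 and 127 CPM in hematogenous, 200.3, 211, 168 and 202 in lymphatic and 189, 247, 197 and 162 in tumor-free libraries. It fell against tumor-free nodes (log2 fold change -0.43, SE 0.135, adjusted p = 0.035) by the smallest fold of the 10 calls. The Rpa1 call was lost without any 1 of hematogenous replicates 1, 3 and 4 and tumor-free replicates 1, 2 and 3 (adjusted p up to 0.135). Rpa2, Rpa3 and the flap nuclease gene Fen1 were not called. Lig1 overlaps Zswim9 on the opposite strand.

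Of the 5 nucleotide supply genes, Rrm1, Rrm2 and Dut were lower in hematogenous than in lymphatic nodes, and Rrm1 also lower than in tumor-free nodes. Rrm1 and Rrm2 encode the subunits of ribonucleotide reductase, which makes deoxyribonucleotides. Rrm1 was at 34, 48, 51.4 and 57.1 CPM in hematogenous libraries, 81.7, 124, 86.4 and 118 in lymphatic and 87.2, 74.5, 63.6 and 69 in tumor-free libraries. All hematogenous libraries were below all others, and the fall was -1.10 on the log2 scale (SE 0.177, adjusted p = 0.00112) against lymphatic and -0.62 on the log2 scale (SE 0.177, adjusted p = 0.0208) against tumor-free nodes. The second was lost without tumor-free replicate 1 or hematogenous replicate 1 (adjusted p up to 0.0695). Rrm2, the subunit whose RNA rises in S phase, was at 2.83, 9.07, 6.52 and 12.9 CPM in hematogenous, 26.1, 39.1, 17.6 and 35.1 in lymphatic and 16.5, 21, 6.75 and 16.2 in tumor-free libraries. The fall against lymphatic nodes was -1.90 on the log2 scale (SE 0.394, adjusted p = 0.00567), and that against tumor-free nodes did not pass (log2 fold change -0.93, SE 0.393, adjusted p = 0.118). Dut, which removes dUTP, was at 15, 17.6, 19.5 and 21.9 CPM in hematogenous, 29.4, 50.3, 27.5 and 30.2 in lymphatic and 28.5, 19.2, 24.2 and 18.4 in tumor-free libraries. Dut fell against lymphatic nodes (log2 fold change -0.89, SE 0.233, adjusted p = 0.0205), a call lost without any 1 of hematogenous replicates 1, 2 and 3 and lymphatic replicate 2 (adjusted p up to 0.133).

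Tk1, the thymidine kinase of the salvage pathway, moved the other way and was the sole member called higher in hematogenous nodes. Its levels were 26.4, 24.3, 18.9 and 34.9 CPM in hematogenous libraries, 16.5, 18.6, 25.1 and 24.1 in lymphatic and 10.6, 17.6, 16 and 14.7 in tumor-free libraries. Each hematogenous library exceeded each tumor-free library, and the rise was 0.83 on the log2 scale (SE 0.246, adjusted p = 0.0263). The call was lost without tumor-free replicate 1, lymphatic replicate 4 or hematogenous replicate 4 (adjusted p up to 0.105). Tk1 overlaps Afmid on the opposite strand, and it did not pass between the models (log2 fold change 0.31, SE 0.241, adjusted p = 0.519). Tyms, thymidylate synthase, did not pass in any comparison, with 3.3, 5.84, 5.82 and 6.49 CPM in hematogenous, 9.49, 11.5, 12.8 and 13.4 in lymphatic and 10.5, 3.25, 9.72 and 7.91 in tumor-free libraries.

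Of the chromatin copying genes, Uhrf1 and Chaf1a were called. Uhrf1, which recruits the maintenance methyltransferase Dnmt1 to newly copied DNA, was at 7.73, 8.56, 1.9 and 12.2 CPM in hematogenous libraries, 23.9, 46.2, 40.4 and 33.7 in lymphatic and 26.5, 16.2, 20.1 and 19.6 in tumor-free libraries. Every hematogenous library lay below every other library. The fall was -2.24 on the log2 scale (SE 0.372, adjusted p = 0.00145) against lymphatic nodes and -1.44 on the log2 scale (SE 0.369, adjusted p = 0.0118) against tumor-free nodes, and both remained called in every fit that left out 1 library. Chaf1a, the large subunit of the histone chaperone CAF-1, was at 8.48, 4.08, 10.4 and 12.8 CPM in hematogenous, 16.2, 31.5, 20.3 and 21.8 in lymphatic and 15.3, 19.5, 13.5 and 8.62 in tumor-free libraries. Chaf1a fell against lymphatic nodes (log2 fold change -1.33, SE 0.336, adjusted p = 0.0175), a call lost without any 1 of hematogenous replicates 1, 2 and 3 and lymphatic replicate 2 (adjusted p up to 0.0917), and its exons overlap Ubxn6 on the opposite strand. Dnmt1, Chaf1b and the histone RNA binding gene Slbp were not called. Dnmt1 had 244, 237, 189.5 and 225 CPM in hematogenous libraries, 210.2, 257, 290.1 and 256 in lymphatic and 311, 209, 315 and 280.3 in tumor-free libraries, with overlap between groups.

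E2f1 and E2f2, activating E2F factors, were lower in hematogenous than in lymphatic nodes. E2f1 had 0.754, 1.16, 0.696 and 3.86 CPM in hematogenous libraries, 9.75, 13.3, 9.71 and 9.93 in lymphatic and 10.7, 3.1, 6.71 and 2.59 in tumor-free libraries. Every hematogenous library lay below every lymphatic library, whereas hematogenous and tumor-free libraries overlapped. The falls were -2.72 on the log2 scale (SE 0.592, adjusted p = 0.00756) against lymphatic nodes and -1.84 on the log2 scale (SE 0.583, adjusted p = 0.0358) against tumor-free nodes. The call against tumor-free nodes was lost without any 1 of hematogenous replicates 1, 2 and 3, lymphatic replicate 1, and tumor-free replicates 1 and 3 (adjusted p up to 0.122). E2f2 had 16, 12.5, 12.7 and 12.7 CPM in hematogenous libraries and 27.4, 32.4, 37.4 and 37 in lymphatic libraries (log2 fold change -1.31, SE 0.277, adjusted p = 0.00611), with 33.6, 10.2, 17.1 and 23 in tumor-free libraries. Ccne1 and Ccne2, the cyclins that switch on CDK2 at the G1/S boundary, and E2f8, a repressor, were not called in any comparison. Ccne1 was at 19.99, 10.4, 18.3 and 13 CPM in hematogenous, 17.8, 20.3, 15.5 and 16.5 in lymphatic and 17.2, 1.33, 8.96 and 18.3 in tumor-free libraries. Ccne2 was at 2.54, 4.03, 6.39 and 6.12 CPM in hematogenous, 7.66, 8.19, 5.47 and 9.09 in lymphatic and 7.12, 0, 2.67 and 0.431 in tumor-free libraries. Tumor-free replicate 2 was lowest for both cyclins, with Ccne2 at a count of 0.

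Clspn, the checkpoint adaptor claspin, gave the largest fold of the lymphatic against tumor-free calls. It stood at 2.92, 5.59, 1.9 and 4.23 CPM in hematogenous libraries, 13.1, 23.8, 16.5 and 23.3 in lymphatic and 3.85, 0, 4.88 and 5.32 in tumor-free libraries. All lymphatic libraries lay above all others. Clspn rose in lymphatic over tumor-free nodes (log2 fold change 2.42, SE 0.6, adjusted p = 0.0321) and was lower in hematogenous than in lymphatic nodes (log2 fold change -2.38, SE 0.593, adjusted p = 0.0163). The rise was lost without any 1 of lymphatic replicates 2, 3 and 4 and tumor-free replicates 1 and 4 (adjusted p up to 0.118) and the fall without any 1 of hematogenous replicates 1 and 3 and lymphatic replicate 2 (up to 0.0783). Tipin, the partner of Timeless at the fork, did not pass (log2 fold change -0.53, SE 0.333, adjusted p = 0.4 between the models).

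**Figure D4:**
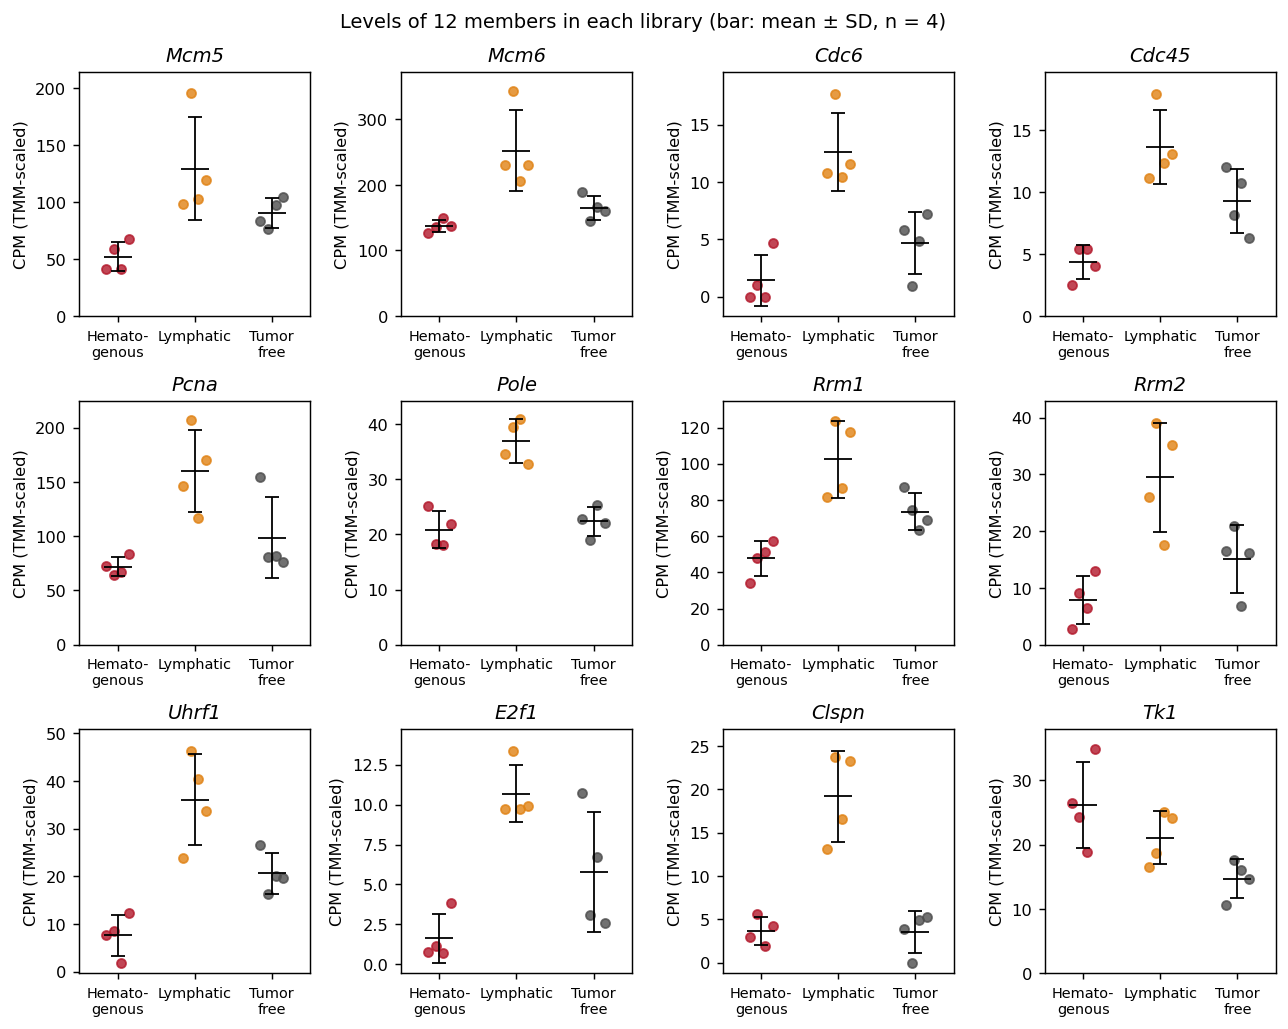
CPM of 12 members in each library (points) with mean and SD, for hematogenous, lymphatic and tumor-free nodes. In Mcm5, Mcm6, Uhrf1 and Rrm1 the 4 hematogenous libraries lie below the 4 lymphatic libraries.

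E2F-type words were found in 10 of the 19 members called lower between the models that had a promoter window (52.6%), and in 8 of the 25 members not called (32%). CCAAT was in 15 of 19 (78.9%) and 13 of 25 (52%). These shares describe the windows, and no test was made between them.

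A further 80 genes of replication, nucleotide metabolism and G1/S control were all tested. Between the models 15 were lower and 3 higher in hematogenous nodes, 18.8% and 3.75% of the 80, against 5.92% and 2.93% of all tested genes. Against tumor-free nodes 14 were lower and 10 higher in hematogenous nodes, 17.5% and 12.5%, against 6.87% and 9.52% of all tested genes, so the share called higher lay near that of all genes. Of 26 initiation and fork genes, 4 were higher (Orc3, Wdhd1, Donson and Rif1) and 4 lower (Timeless, Pole4, Rnaseh2c and Asf1b), 15.4% each. Of 29 nucleotide metabolism genes, 3 were higher (Dck, Tk2 and Samhd1) and 5 lower (Nme1, Nme2, Cad, Ppat and Adsl), 10.3% and 17.2%. Over all tested genes 9.52% were higher and 6.87% lower, so the nucleotide share called higher lay near that of all genes. The calls of Orc3, Wdhd1, Donson, Rif1, Dck, Tk2, Timeless and Cad were each lost without some single library (adjusted p up to 0.125 in edgeR). In lymphatic against tumor-free nodes 4 were higher and 2 lower, 5% and 2.5%, against 2.32% and 0.418%. Their median log2 fold change was -0.39 for hematogenous minus lymphatic, -0.21 for hematogenous minus tumor free and 0.16 for lymphatic minus tumor free. The 26 initiation and fork genes summed to 980 to 1116 CPM in hematogenous, 1041 to 1180 in lymphatic and 954 to 1087 in tumor-free libraries. In the same order, the 29 nucleotide metabolism genes summed to 1624 to 1870, 2114 to 2632 and 1687 to 1903 CPM. Samhd1 alone averaged 570 CPM of a mean sum of 1749 in hematogenous, 780 of 2294 in lymphatic and 383 of 1828 in tumor-free libraries. Sums without Samhd1 were not made. The 25 G1/S control genes summed to 1985 to 2107, 2245 to 2645 and 2087 to 2297 CPM. Hematogenous and tumor-free ranges of these sums, Samhd1 included, overlapped in each list. The genes higher in hematogenous than in lymphatic nodes were Tk2, the mitochondrial thymidine kinase, Tfdp2, an E2F partner, and Cdkn1b, the inhibitor p27. Cdkn1b was at 362, 276, 320.3 and 272 CPM in hematogenous libraries, 226, 162, 212 and 249 in lymphatic and 207, 209.7, 185 and 182 in tumor-free libraries. It rose in hematogenous nodes against lymphatic nodes (log2 fold change 0.54, SE 0.135, adjusted p = 0.0172) and against tumor-free nodes (log2 fold change 0.65, SE 0.136, adjusted p = 0.00312). Without lymphatic replicate 2 the first Cdkn1b call was at adjusted p = 0.0697, and the Tk2 call was lost without any 1 of hematogenous replicate 3 and lymphatic replicates 2 and 4 (up to 0.0689). Of the 18 calls between the models, 8 held in each fit that left out 1 library, as did 12 of the 24 against tumor-free nodes and 3 of the 6 in lymphatic nodes.

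Several genes of these lists differed from the tumor-free group in both models. Both comparisons use the same tumor-free libraries, so they are not independent results. Samhd1, which breaks down deoxyribonucleotides, was at 534, 612, 482 and 652 CPM in hematogenous libraries, 719.5, 699.8, 907 and 794 in lymphatic and 398, 330.0, 419.6 and 384 in tumor-free libraries. It rose in hematogenous nodes (log2 fold change 0.57, SE 0.127, adjusted p = 0.0046) and in lymphatic nodes (log2 fold change 1.02, SE 0.127, adjusted p = 7.4e-05), and was lower in hematogenous than in lymphatic nodes (log2 fold change -0.45, SE 0.126, adjusted p = 0.0293). Myb, a transcription factor of dividing progenitors, rose in hematogenous nodes (log2 fold change 0.90, SE 0.168, adjusted p = 0.00146) and in lymphatic nodes (log2 fold change 1.42, SE 0.169, adjusted p = 5.08e-05). Rnaseh2c, a subunit of the RNase H2 complex, fell in hematogenous (log2 fold change -1.50, SE 0.256, adjusted p = 0.000741) and lymphatic nodes (log2 fold change -1.34, SE 0.254, adjusted p = 0.00411). Ccnd3, a D-type cyclin, fell in hematogenous nodes (log2 fold change -0.62, SE 0.146, adjusted p = 0.00727) and in lymphatic nodes (log2 fold change -0.56, SE 0.145, adjusted p = 0.042). The lymphatic Ccnd3 call was lost without any 1 of lymphatic replicates 1, 2 and 4 and tumor-free replicates 1, 2, 3 and 4 (adjusted p up to 0.176), and the Samhd1 call between the models without any 1 of hematogenous replicates 1, 2 and 3, lymphatic replicates 3 and 4, and tumor-free replicates 1 and 4 (up to 0.165).

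Of the 25 further G1/S control genes, 6 were lower and 2 higher in hematogenous than in lymphatic nodes (24% and 8%). Over all tested genes these shares were 5.92% and 2.93%. The 6 lower genes were Ccnd2, Cdk4, Ccna2, E2f3, Rbl1 and Tfdp1. Against tumor-free nodes 5 were lower and 3 higher in hematogenous nodes, 20% and 12%, against 6.87% and 9.52% of all tested genes. The share called higher lay near that of all genes. A fitted difference above 0 was found in 15 of the 25 (median log2 fold change 0.153, against 0.078 over all genes). The E2f3 call was lost without any 1 of 10 libraries (adjusted p up to 0.169) and the Rbl1 call without any 1 of 6 (up to 0.145). Ccnd2, a D-type cyclin, was at 376, 466, 368 and 474 CPM in hematogenous libraries, 583, 918, 735 and 549.5 in lymphatic and 698, 508, 696 and 628 in tumor-free libraries (log2 fold change -0.72, SE 0.156, adjusted p = 0.0072 between the models). Its partner Cdk4 (log2 fold change -0.56, SE 0.165, adjusted p = 0.0373), the E2F partner Tfdp1 (log2 fold change -1.07, SE 0.209, adjusted p = 0.00368) and cyclin A2 (Ccna2, log2 fold change -1.42, SE 0.437, adjusted p = 0.0467) were lower too. Ccna2 rose in lymphatic against tumor-free nodes (log2 fold change 1.93, SE 0.452, adjusted p = 0.0216). In purine and pyrimidine synthesis, Ppat (log2 fold change -1.11, SE 0.208, adjusted p = 0.00293), Paics (log2 fold change -0.63, SE 0.156, adjusted p = 0.016) and Umps (log2 fold change -1.07, SE 0.236, adjusted p = 0.00826) were lower between the models, and Cad (log2 fold change -0.69, SE 0.189, adjusted p = 0.017) and Adsl (log2 fold change -0.89, SE 0.204, adjusted p = 0.00588) were lower than in tumor-free nodes. Between the models the call of Cdk4 was lost without any 1 of hematogenous replicates 1, 2, 3 and 4, lymphatic replicates 1 and 2, and tumor-free replicates 1 and 4 (adjusted p up to 0.188), that of Ccna2 without any 1 of hematogenous replicates 1, 2, 3 and 4, lymphatic replicates 1, 2 and 4, and tumor-free replicate 1 (up to 0.171), Paics without lymphatic replicate 2 or hematogenous replicate 1 (up to 0.0853) and Umps without lymphatic replicate 2 (0.054). The lymphatic Ccna2 call was lost without any 1 of lymphatic replicates 1, 2 and 4 and tumor-free replicates 1, 2 and 3 (up to 0.121) and the Cad call without any 1 of hematogenous replicate 3 and tumor-free replicates 2 and 3 (up to 0.0662).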

How the data were processed

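RNA was sequenced from sorted NK cells in 12 libraries, 4 per group, grouped by sample title. For each library the authors deposited 1 file of raw gene counts. The submitters' processing notes name the build GRCm39 and the tools HTSeq 2.0.2, HISAT2 2.1.0, Trimmomatic 0.39 and FastQC 0.11.9. Reads were stranded and single-end, per the labels' protocols. Neither the annotation release nor the strand option of HTSeq is stated there, so reads of overlapping genes on opposite strands may be shared: 16 of the 54 members have such an exon overlap in GENCODE M21. Each file had 5 summary lines, left out of library sizes and tests; 55.4% to 72.1% of reads were assigned to genes. Symbols came from GENCODE M21 and matched 52073 of 56748 gene IDs (91.8%). Exon lengths are from the same annotation, of an older build, and promoter windows from RefSeq on GRCm38.p6.

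Genes were tested with edgeR 4.0.16 in R 4.3.3 (quasi-likelihood F test, robust, TMM scaling, default filter by group). The model had group as its single term and was fitted to all 12 libraries (9 residual degrees of freedom). A call needed an adjusted p under 0.05 by Benjamini-Hochberg over 16016 genes. Standard errors were derived as |log2 fold change| / sqrt(F). CPM values are TMM-scaled, with SD over 4 libraries. Alternatives were other scalings, filters, DESeq2 1.42.0, fits of the compared groups only, a replicate block, a B cell covariate, equal depth, removal of a length trend and leaving out each library. Same-numbered libraries of different groups did not deviate together (correlations -0.073 to 0.059), and the main model had no pairing. Such correlations over all genes cannot exclude a batch shared by samples of the same number. Depth limits low genes most in the tumor-free libraries, and limits for counts of 0 (3 counts per library) cover counting error only.

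Named members were those called in any comparison, the 2 with the smallest p in each of 10 functional groups, and Pcna, Mcm6, Rrm2, Tyms, Cdt1, Gmnn, Ccne1, Ccne2, E2f1 and Uhrf1. Dnmt1 and the remaining members are named for completeness, outside that rule. The members and gene lists were chosen with earlier results of these data known.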

Additional observations from a re-analysis of the deposited data

Results flagged for a closer look

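In 10 of 93 groups of 4 libraries checked for the named members, 1 library stood so far from the other 3 that its gap passed Dixon's critical value; chance gives about 1 such group in 20. Lymphatic replicate 2 was the high library for Mcm3 (163 CPM), Mcm7 (148 CPM), Cdc6 (17.7 CPM), Dut (50.3 CPM) and E2f1 (13.3 CPM). Hematogenous replicate 4 was high for E2f1 (3.86 CPM) and hematogenous replicate 1 for E2f2 (16 CPM). Among tumor-free libraries, replicate 1 was high for Pcna (154 CPM), replicate 4 was high for Mcm10 (11.6 CPM) and replicate 2 was low for Mcm2 (52.3 CPM). Also flagged were the 22 members called between the models, each lower in hematogenous than in lymphatic nodes. A difference between the models' effects against tumor-free nodes is that same comparison, so these are the calls given above and not a further test.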

How the results depend on the processing

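No named member turned its direction while called. The members' median log2 fold change stayed on its side of 0 in all 11 alternatives and all fits without 1 library: -0.813 to -0.562 without single libraries for hematogenous minus lymphatic, -0.422 to -0.212 for hematogenous minus tumor free and 0.278 to 0.544 for lymphatic minus tumor free. In the fits without 1 library 11 to 23 members were called for hematogenous minus lymphatic, 6 to 12 for hematogenous minus tumor free and 0 to 3 for lymphatic minus tumor free. In the 11 alternatives the calls were 18 to 27, 4 to 15 and 0 to 3 in the same order. Lymphatic minus tumor free, with 3 calls, gave 1 under library size alone, 0 with only the compared groups, 0 with the B cell covariate and 1 with the length trend removed; hematogenous minus tumor free, with 10, gave 4 with the B cell covariate. The cause was not tested. With a replicate block, the calls were 23 for hematogenous minus lymphatic (22 without it), 10 for hematogenous minus tumor free (10 without it) and 1 for lymphatic minus tumor free (3 without it); 8 of 24 library-by-group checks had the best correlation at the library's own number.
Genes called over the whole table were 2200 with DESeq2 and 1417 in the main analysis for hematogenous minus lymphatic, 891 with DESeq2, 176 with the B cell covariate and 439 in the main analysis for lymphatic minus tumor free, and 1131 with the covariate and 2625 in the main analysis for hematogenous minus tumor free. The median of all genes for hematogenous minus lymphatic was 0.1 under library size alone and -0.006 under TMM, and the members' median was -0.631 under library size alone and -0.739 under TMM. Under other scalings all genes split into 624 higher and 693 lower (DESeq2 size factors) and 680 and 619 (upper quartile). Between the models, Cdc6 lost its call in 7 alternatives other than single libraries (adjusted p up to 0.0741), Gmnn in 6 (up to 0.118), Pola1 in 4 (up to 0.0654) and Mcm7 in 1 (0.0533). The Tk1 call was lost with only the compared groups, the B cell covariate and the length trend removed (up to 0.0614).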
